A study of Mus musculus with 12 samples.

Results

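The mitochondrial stress response and mitochondrial one-carbon metabolism were followed in the mouse left ventricle through Atf4, Atf5, Nupr1, Gdf15, Fgf21, Mthfd2, Aldh1l2, Asns, Psat1 and Shmt2. These are 10 of the 55401 genes in the deposited count table. The genes Atf4, Atf5, Gdf15, Fgf21, Asns, Psat1 and Shmt2 were taken for their function. Nupr1 and Mthfd2 were taken also because they were higher after pressure overload in both genotypes, and Aldh1l2 because its genotype by surgery interaction passed the threshold. These 3 genes were thus chosen by their measured fold changes and interaction, and those values are given below as a description with no test. Left ventricle RNA was sequenced in 12 libraries, 3 for each of 4 groups: Prkca T497A mice after transverse aortic constriction (TAC), Prkca T497A mice after sham surgery, wild type mice after TAC and wild type mice after sham surgery. TAC narrows the aortic arch over a needle, here of 27 gauge, and loads the left ventricle with pressure. In T497A the activation-loop threonine of protein kinase C alpha is replaced by alanine. All mice were operated on at 10 weeks of age and sampled 5 weeks later, at 15 weeks. The series title names base editing, but the labels give neither how the mutant mice were made nor strain or sex, and whether every library came from another animal is not written there. Each title carries a number of its own whose meaning is not given. The p-values therefore cover only the spread between these libraries.

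These genes belong to the integrated stress response. Kinases that sense stress phosphorylate the translation factor eIF2alpha, which lowers general protein synthesis and raises translation of the transcription factors ATF4 and ATF5. ATF4 then raises transcription of genes for amino acid synthesis and transport, mitochondrial folate enzymes and secreted factors. In failing mitochondria the protease OMA1 cleaves DELE1, which carries the signal to the eIF2alpha kinase HRI in the cytosol, and in mouse heart and muscle this response is known to switch on with defects of the respiratory chain. Mitochondrial one-carbon metabolism passes the carbon of serine to tetrahydrofolate through SHMT2, which yields glycine, and oxidises the carbon through MTHFD2. The carbon can then leave as formate, or as CO2 through ALDH1L2, and reduced cofactors are made on the way.

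ATF4 binds composite elements with the core TGATGNAA, in which a site for C/EBP proteins adjoins a site for ATF proteins. RefSeq promoter windows of GRCm38.p6, from 250 bases before to 50 bases after the gene start, were present for 9 of the 10 genes, all but Aldh1l2. TGATGNAA or its reverse TTNCATCA was found for 3 of these 9 genes, Nupr1, Fgf21 and Asns. It was found for 2.82% of all tested genes with at least 1 window (324 of 11480 genes), a set without the untested Fgf21, and in 3.97% of all windows in the table (1304 of 32851). The match is a description of letters and was searched on both strands with no other motif. Stretches of the 3 windows are shown because they hold a match to the core of the element that ATF4 binds. Binding at these matches was not measured. Capitals mark the match, and 60 bases are given 5′ to 3′ on the strand of the gene, which is the minus strand for each.
Nupr1, chr7:126625547-126625606: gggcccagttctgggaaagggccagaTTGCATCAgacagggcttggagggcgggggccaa
Fgf21, chr7:45615596-45615655: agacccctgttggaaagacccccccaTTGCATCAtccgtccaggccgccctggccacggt
Asns, chr6:7693210-7693269: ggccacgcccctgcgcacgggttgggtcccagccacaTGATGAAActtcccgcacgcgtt
In Nupr1 and Fgf21 the match reads TTGCATCA and begins 110 and 139 bases before the RefSeq start. In Asns it reads TGATGAAA and begins 23 bases before the RefSeq start. The RefSeq start is also the outer end of the GENCODE gene for Fgf21. It lies 5391 bases inside the GENCODE gene for Nupr1 and 45 bases inside it for Asns. In both of these the match thus falls within the wider gene span given below. Among the genes without a match, the RefSeq start lies 8304 bases inside the GENCODE gene for Mthfd2. For the windows of Psat1 it lies 22278 and 22715 bases inside. The outer ends of the GENCODE genes of Mthfd2 and Psat1 were thus not searched.

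The libraries held between 36862004 (wild type sham replicate 3) and 46898344 (T497A sham replicate 3) counts. Transcripts of the mitochondrial genome took 24.6 to 26.1% of counts in T497A TAC, 28.3 to 30.9% in T497A sham, 19.6 to 20.9% in wild type TAC and 25.1 to 29.0% in wild type sham. Levels below are in CPM, the count of a transcript scaled for library size with TMM factors. Of 5 markers of pressure load 5 were higher after TAC in wild type, where 12.3% of all genes were. None was called after TAC in T497A, where 0.0634% of all genes were called higher. In T497A their log2 fold changes ran from 0.76 for Nppb to 1.89 for Nppa, with edgeR adjusted p from 0.164 to 0.691. Nppa, the atrial natriuretic peptide gene, was at 97.1, 252 and 124 CPM in T497A TAC, 27.3, 48.9 and 51.7 in T497A sham, 500.1, 793 and 1187 in wild type TAC and 28.6, 48.3 and 18.8 in wild type sham. Postn, the gene of the matrix protein periostin, was at 86.6, 208 and 104 CPM in T497A TAC, 51.0, 62.8 and 37.04 in T497A sham, 602, 546 and 584 in wild type TAC and 44.2, 58.5 and 49.95 in wild type sham. For both genes wild type TAC stood above all other libraries, T497A TAC lay between it and the sham groups, and the sham groups overlapped. Cardiomyocyte is the labelled cell type, but no sorting is described. The 8 cardiomyocyte markers summed to 40774 to 62334 CPM, and no marker of fibroblasts, endothelium, macrophages, smooth muscle and pericytes or lymphocytes was at 0 in every library of a group.

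Markers of other cell types were also called in the comparisons below. After TAC in wild type 6 of 8 macrophage markers and 4 of 8 fibroblast markers were higher, where 12.3% of all genes were, and 5 of 8 cardiomyocyte markers were lower, where 12.6% of all genes were. After TAC in T497A none of these markers was called by edgeR, where only 0.114% of all genes were. In T497A TAC against wild type TAC 3 cardiomyocyte markers were higher, where 4.64% of all genes were, and 2 fibroblast markers and 1 macrophage marker were lower, where 4.06% of all genes were. The macrophage markers summed to 233 to 304 CPM in T497A TAC, 203 to 249 in T497A sham, 287 to 363 in wild type TAC and 182 to 212 in wild type sham. The fibroblast markers summed to 2229 to 2426 CPM in T497A TAC, 1780 to 2115 in T497A sham, 2759 to 3174 in wild type TAC and 1796 to 1845 in wild type sham. The cardiomyocyte markers summed to 47689 to 48707 CPM in T497A TAC, 49894 to 57753 in T497A sham, 40774 to 48702 in wild type TAC and 54475 to 62334 in wild type sham. The part of these shifts in the results below was not tested. In such bulk RNA fewer cells of a type and less RNA per cell cannot be told apart.

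Per kilobase of exon, the transcription factors and Shmt2 were the most abundant of the 10 transcripts in every group. In wild type sham Atf4 was at 19.1 ± 2.34, Atf5 at 14.2 ± 0.770 and Shmt2 at 9.83 ± 0.864 CPM per kilobase (SD, n = 3). All the others lay at or below 1.80 there, the level of Aldh1l2, with Nupr1 at 0.787, Psat1 at 0.580, Asns at 0.503, Mthfd2 at 0.496, Gdf15 at 0.233 and Fgf21 at 0.0313. Psat1, Asns and Mthfd2 overlapped between libraries and so have no order in wild type sham. The order changed with load: in wild type TAC, Nupr1 at 4.36 ± 0.171 followed Shmt2, Gdf15 at 2.50 ± 1.22 ranged from 1.12 to 3.44 and so overlapped Mthfd2, and Aldh1l2 at 0.394 ± 0.0382 was the lowest but for Fgf21.

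Of the 10 genes, 9 reached the minimum level for testing, 0.239 CPM, in all 12 libraries, and Fgf21 did in none, so 6 of the 7 genes taken for their function were tested. After TAC in wild type 3 of these 6 rose and none fell, where 25.0% of all tested genes were called in either direction and 12.3% as higher. After TAC in T497A none was called by edgeR's quasi-likelihood test, where 0.114% of all genes were. Of the 6, 3 had an unadjusted p under 0.05, as did 11.7% of all genes. Neither DESeq2 nor limma-voom called any of the 6, and over all 15764 tested genes they called 297 and 0. In T497A TAC against wild type TAC, 1 of the 6 was lower and none higher, where 8.70% of all genes were called and 4.06% as lower. In T497A sham against wild type sham none of the 6 was called by edgeR, DESeq2 or limma-voom. Over all genes edgeR called 0.0254%, DESeq2 11 genes and limma-voom 2. None of the 6 had an unadjusted p under 0.05, where 3.03% of all genes did. The interaction, the TAC response in T497A minus that in wild type, was called by edgeR for none of the 6, where 1.57% of all genes were. Of the 6, 2 had an unadjusted p under 0.05, as did 16.8% of all genes. DESeq2 called 1 of them and limma-voom none, and over all genes they called 859 and 183. The median log2 fold change of these 6 genes was 0.19 after TAC in T497A and 0.62 after TAC in wild type, and over all genes it was 0.0069 in T497A and 0.014 in wild type. These 2 responses have separate sham controls, but the genotype comparison after TAC and the interaction share libraries with both.

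**Figure D1:**
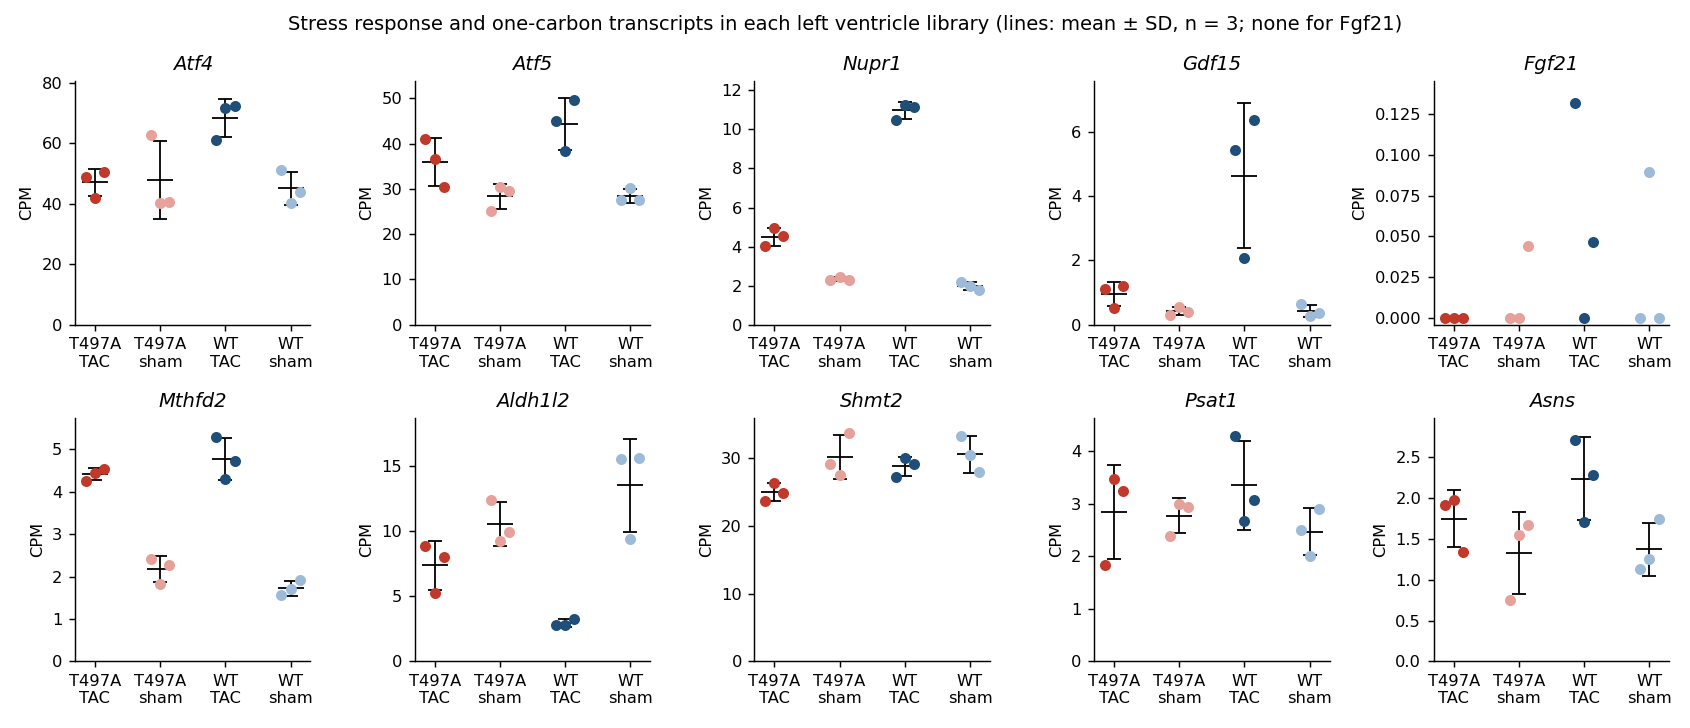
Level of each of the 10 transcripts in CPM (vertical axes, each from 0) in the 4 groups, with 1 point for each library and lines for the mean ± SD (n = 3); Fgf21 has points only, on an axis that starts just under 0. Nupr1 stands between 10.5 and 11.3 CPM in wild type TAC, above the 4.02 to 4.93 CPM of T497A TAC, while Mthfd2 lies between 4.26 and 5.28 CPM in both TAC groups.

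Atf4, which encodes the central transcription factor of the response (ENSMUSG00000042406.8, chromosome 15, 80255184 to 80257541, plus strand, GRCm38), rose after TAC in wild type and not detectably in T497A. Its level was 48.9, 41.8 and 50.3 CPM in T497A TAC, 62.6, 40.05 and 40.6 in T497A sham, 60.9, 71.7 and 72.3 in wild type TAC and 51.2, 40.4 and 43.7 in wild type sham. The 3 wild type TAC libraries lay above all wild type sham and all T497A TAC libraries, and the T497A groups overlapped. Such a gap between wild type TAC and wild type sham was seen for 42.2% of all genes and for 3 of the 6 genes tested for their function, Atf4, Atf5 and Gdf15. Between T497A TAC and wild type TAC a gap was seen for 28.0% of all genes. Both shares are the background for the gaps of single genes described below. The log2 fold change after TAC was -0.02 ± 0.16 in T497A (SE, adjusted p = 0.973) and 0.60 ± 0.16 in wild type (adjusted p = 0.0189, edgeR's quasi-likelihood test with Benjamini-Hochberg adjustment, as throughout). The wild type call was lost without wild type TAC replicate 2 or 3, or without wild type sham replicate 2 or 3 (adjusted p 0.0577, 0.0676, 0.0712 and 0.0663). T497A TAC against wild type TAC gave -0.54 ± 0.16 (adjusted p = 0.0631), and this difference was called by DESeq2 (adjusted p = 0.0127), by limma-voom (0.0448), with the TAC libraries alone (0.0215) and without T497A sham replicate 1 (0.00817). The interaction was -0.62 ± 0.23 (adjusted p = 0.196). Translation of Atf4 is regulated separately from its transcript, and it was not measured here.

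Atf5 encodes a related factor that acts on mitochondrial chaperone genes (ENSMUSG00000038539.15, chromosome 7, 44812256 to 44816658, minus strand). It was at 41.0, 36.5 and 30.3 CPM in T497A TAC, 25.2, 30.4 and 29.5 in T497A sham, 44.9, 38.3 and 49.7 in wild type TAC and 27.5, 30.1 and 27.4 in wild type sham. The TAC libraries lay above the sham libraries in wild type and overlapped them narrowly in T497A, where the lowest TAC library, 30.3 CPM, was just under the highest sham library. Atf5 rose 1.56-fold in wild type (0.64 ± 0.12, adjusted p = 0.00157), and in T497A its log2 fold change was 0.34 ± 0.12 (adjusted p = 0.288). T497A TAC against wild type TAC gave -0.30 ± 0.12 (adjusted p = 0.138) and the interaction -0.30 ± 0.17 (adjusted p = 0.406), so the responses of the genotypes were not shown to differ. With no filter on low counts, both the T497A response and the genotype difference after TAC were called (adjusted p 0.0459 and 0.0362). Of the 1993 exon bases of Atf5, 82 are shared with Nup62 on the opposite strand, whose log2 fold change after TAC in wild type was 0.27 ± 0.10 (adjusted p = 0.0716).

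Nupr1 encodes a small nuclear protein induced by many stresses and is a target of ATF4 (ENSMUSG00000030717.9, chromosome 7, 126623249 to 126630861, minus strand). It was at 4.02, 4.93 and 4.54 CPM in T497A TAC, 2.29, 2.44 and 2.29 in T497A sham, 10.5, 11.3 and 11.2 in wild type TAC and 2.17, 1.97 and 1.80 in wild type sham. The 4 groups did not overlap, and the spread within each was small. Chosen for this pattern, Nupr1 was 1.92-fold higher after TAC in T497A (0.94 ± 0.14) and 5.53-fold higher in wild type (2.47 ± 0.14), and its interaction was -1.52 ± 0.20. The genotype comparison after TAC was not what chose the gene. It uses the TAC libraries that did, so its p-value is not independent of the choice. In that comparison Nupr1 was 2.44-fold lower in T497A (-1.29 ± 0.13, adjusted p = 0.000337). It was called under all 19 alternative settings, which reuse the same counts, with values from -1.36 to -1.21. After sham its log2 difference, T497A minus wild type, was 0.24 ± 0.14 (adjusted p = 1) although the groups did not overlap, as held for 8.21% of all genes.

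**Figure D2:**
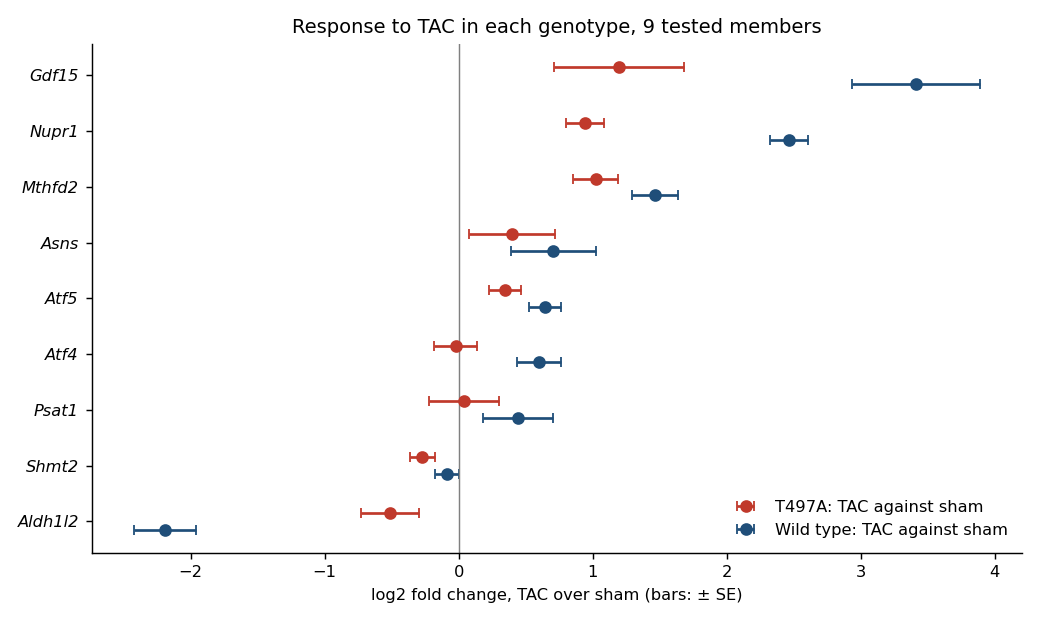
log2 fold change of TAC over sham (horizontal axis, bars ± SE) for the 9 tested genes, in T497A and in wild type. Gdf15 lies at 1.20 in T497A and 3.41 in wild type, Nupr1 at 0.94 and 2.47, and Aldh1l2 on the negative side at -0.51 and -2.19; Shmt2 stands near 0 in wild type at -0.09.

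Gdf15 encodes a secreted stress factor that acts on the brainstem through GFRAL and RET (ENSMUSG00000038508.7, chromosome 8, 70629393 to 70632456, minus strand). It was the member with the largest fold change after TAC in wild type. Its level was 1.12, 0.532 and 1.20 CPM in T497A TAC, 0.299, 0.555 and 0.396 in T497A sham, 5.44, 2.08 and 6.36 in wild type TAC and 0.646, 0.268 and 0.378 in wild type sham. Every wild type TAC library lay above all 9 others, although replicate 2 was well below its group. Gdf15 rose 10.7-fold in wild type (3.41 ± 0.48, adjusted p = 0.000235), and in T497A its log2 fold change was 1.20 ± 0.48 (adjusted p = 0.349) with overlapping groups. In T497A TAC it was 4.85-fold lower than in wild type TAC (-2.28 ± 0.44, adjusted p = 0.00783). Both calls held under all 19 alternative settings, with 3.11 to 3.84 for the wild type response and -2.63 to -1.98 for the genotype difference. The interaction was -2.22 ± 0.67 (adjusted p = 0.111), and it was called by DESeq2 (adjusted p = 0.0255), with no filter (0.00175) and without wild type TAC replicate 2 (0.0403). Among the members whose interaction was tested, which leaves out Nupr1, Mthfd2 and Aldh1l2, Gdf15 had the smallest adjusted p.

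Fgf21 encodes a hormone that is secreted by liver and by stressed muscle (ENSMUSG00000030827.5, chromosome 7, 45613886 to 45615490, minus strand). It was barely detected: counts were 0, 0 and 0 in T497A TAC, 0, 0 and 2 in T497A sham, 6, 0 and 2 in wild type TAC and 0, 4 and 0 in wild type sham. No group stood apart, and 8 of the 12 libraries were at 0. A count of 0 allows a level of up to 0.0669 to 0.0725 CPM in the T497A TAC libraries. This limit is 3 counts of each library and covers counting error only. It does not allow for the scarcity of odd numbers among low counts, given below. No fold change is given at this depth. Its promoter window holds a match shown above, as do those of Nupr1 and Asns.

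Genes of receptors for these 2 hormones were also looked up. Of 7 such genes 4 were tested, namely Ret, Fgfr1, Fgfr2 and Fgfr3. The genes of GFRAL and of beta-klotho, a partner of FGFR1, were not among these 4. After TAC in wild type 1 of the 4 rose and 1 fell. Over all genes 12.3% rose and 12.6% fell. Fgfr1, which serves FGF21 together with beta-klotho, was at 32.3, 36.4 and 32.7 CPM in T497A TAC, 27.9, 30.9 and 32.0 in T497A sham, 52.1, 45.4 and 52.8 in wild type TAC and 27.9, 33.0 and 27.4 in wild type sham. All 3 wild type TAC libraries stood above the other 9. Fgfr1 rose after TAC in wild type (0.77 ± 0.09, adjusted p = 8.68e-05) and was lower in T497A than in wild type after TAC (-0.57 ± 0.09, adjusted p = 0.0037). Its interaction passed at -0.61 ± 0.13 (adjusted p = 0.0424), a call lost with limma-voom (0.0515) and without each of 8 libraries (0.0797 to 0.117), namely all but T497A TAC replicate 2, T497A sham replicate 1, wild type TAC replicate 2 and wild type sham replicate 2. Ret, which encodes the signalling partner of GFRAL, ran the other way. It was at 5.96, 7.71 and 6.02 CPM in T497A TAC, 8.61, 8.46 and 8.36 in T497A sham, 3.22, 3.65 and 3.45 in wild type TAC and 8.73, 6.43 and 10.3 in wild type sham. Ret fell in wild type after TAC (-1.30 ± 0.17, adjusted p = 0.000124) and was higher in T497A than in wild type after TAC (0.93 ± 0.17, adjusted p = 0.00544).

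Mthfd2, the mitochondrial methylenetetrahydrofolate dehydrogenase and cyclohydrolase, is low in most adult tissues (ENSMUSG00000005667.8, chromosome 6, 83305691 to 83325908, minus strand). It was at 4.26, 4.45 and 4.54 CPM in T497A TAC, 2.41, 1.83 and 2.27 in T497A sham, 5.28, 4.30 and 4.73 in wild type TAC and 1.57, 1.70 and 1.92 in wild type sham. The TAC groups overlapped each other, and both stood above both sham groups. Chosen for this pattern, it was 2.03-fold higher after TAC in T497A (1.02 ± 0.17) and 2.76-fold higher in wild type (1.47 ± 0.17), with an interaction of -0.44 ± 0.24. T497A TAC against wild type TAC gave -0.11 ± 0.16 (adjusted p = 0.743) and T497A sham against wild type sham 0.33 ± 0.18 (adjusted p = 1). Both comparisons use libraries that chose Mthfd2, so their p-values are not independent of the choice. With that limit, Mthfd2 was not shown to differ between the genotypes after TAC.

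Aldh1l2 encodes the mitochondrial 10-formyltetrahydrofolate dehydrogenase, which releases the folate-bound carbon as CO2 with production of NADPH (ENSMUSG00000020256.14, chromosome 10, 83487450 to 83534140, minus strand). Its level was 8.88, 5.24 and 8.01 CPM in T497A TAC, 12.4, 9.24 and 9.94 in T497A sham, 2.78, 2.79 and 3.29 in wild type TAC and 15.5, 9.36 and 15.6 in wild type sham. The wild type TAC libraries stood below all 9 others, and the T497A TAC libraries lay between them and the sham libraries. Chosen for its interaction (1.68 ± 0.32), it was 1.43-fold lower after TAC in T497A (-0.51 ± 0.22) and 4.56-fold lower in wild type (-2.19 ± 0.23), and 2.50-fold higher in T497A than in wild type after TAC (1.32 ± 0.23). After sham its log2 difference, T497A minus wild type, was -0.36 ± 0.22. Of its 7503 exon bases, 1056 (14.1%) are shared with D10Wsu102e on the opposite strand, and the use of strand in counting is not given in the sources used here. D10Wsu102e averaged 16.0 CPM in T497A TAC, 13.6 in T497A sham, 15.0 in wild type TAC and 13.3 in wild type sham, with a log2 fold change after TAC of 0.24 ± 0.12 in T497A (adjusted p = 0.491) and 0.17 ± 0.12 in wild type (adjusted p = 0.354).

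Shmt2 encodes the mitochondrial serine hydroxymethyltransferase that feeds this pathway (ENSMUSG00000025403.5, chromosome 10, 127517123 to 127522444, minus strand). It was at 23.7, 26.3 and 24.9 CPM in T497A TAC, 29.1, 27.5 and 33.7 in T497A sham, 27.2, 30.0 and 29.2 in wild type TAC and 33.3, 30.5 and 27.9 in wild type sham. The T497A TAC libraries were below all others, and the other 3 groups overlapped. None of these differences passed: after TAC the log2 fold change was -0.27 ± 0.09 in T497A (adjusted p = 0.276) and -0.09 ± 0.09 in wild type (adjusted p = 0.538), and T497A TAC against wild type TAC gave -0.21 ± 0.09 (adjusted p = 0.193). Groups without overlap were seen for 15.4% of all genes in the T497A response and 28.0% in the genotype comparison after TAC.

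Asns and Psat1 encode enzymes of amino acid synthesis that are used as readouts of ATF4: asparagine synthetase, and the aminotransferase of serine synthesis. Asns (ENSMUSG00000029752.12, chromosome 6, 7675169 to 7693254, minus strand) was at 1.92, 1.98 and 1.34 CPM in T497A TAC, 0.747, 1.55 and 1.67 in T497A sham, 2.72, 1.71 and 2.28 in wild type TAC and 1.13, 1.25 and 1.74 in wild type sham. Psat1 (ENSMUSG00000024640.9, chromosome 19, 15904678 to 15947337, minus strand) was at 1.83, 3.48 and 3.24 CPM in T497A TAC, 2.39, 3.00 and 2.95 in T497A sham, 4.30, 2.68 and 3.08 in wild type TAC and 2.49, 2.01 and 2.90 in wild type sham. TAC and sham groups overlapped for both genes in both genotypes, and no comparison called either. For Asns the log2 fold change after TAC was 0.40 ± 0.32 in T497A (adjusted p = 0.696) and 0.71 ± 0.32 in wild type (adjusted p = 0.124). For Psat1 it was 0.04 ± 0.26 in T497A (adjusted p = 0.973) and 0.44 ± 0.26 in wild type (adjusted p = 0.242). T497A TAC against wild type TAC gave -0.36 ± 0.31 for Asns and -0.24 ± 0.26 for Psat1 (adjusted p 0.544 and 0.643). The match in the Asns window, of which the human gene is known to hold a counterpart bound by ATF4, is among the sequences shown above.

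Odd numbers were scarce among low counts in the table. Among 2651 genes with a mean count of 3 to 10, 26.9% of values above 0 were odd, against 48.3% among 5035 genes with a mean of at least 1000. Of the 12 values of a member, 0 were odd for Psat1 and Fgf21, 1 for Asns and Nupr1, 2 for Gdf15 and Atf4, 5 for Mthfd2 and Atf5, 6 for Shmt2 and 8 for Aldh1l2. These numbers did not follow the level, since Atf4 had 26410 counts in all and Mthfd2 1677. The cause was not tested. Counts halved and rounded up, an alternative chosen after seeing the data, gave the same calls for the members in every comparison.

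The wider pathway was described with 9 lists of 116 genes besides the 10 members, of which 110 were tested. After TAC in wild type 18 of the 110 rose (16.4%, against 12.3% of all genes) and 23 fell (20.9%, against 12.6%). After TAC in T497A none was called by edgeR, DESeq2 or limma-voom. Over all genes edgeR called 0.0634% higher and 0.0507% lower, DESeq2 called 297 genes and limma-voom 0. Of the 110, 13 had an unadjusted p under 0.05 (11.8%, against 11.7% of all genes). In T497A TAC against wild type TAC 6 were higher (5.46%, against 4.64% of all genes) and 4 lower (3.64%, against 4.06%). After sham the genotypes had no called gene among the 110 by any of the 3 tools, and 4 with an unadjusted p under 0.05 (3.64%, against 3.03% of all genes). Over all genes edgeR called 0.0254% there, DESeq2 11 genes and limma-voom 2. The interaction was called for 1 as higher and 1 as lower (0.909% each, against 0.894% and 0.679% of all genes). Between the genotypes and in the interaction these shares were near the background.

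**Figure D3:**
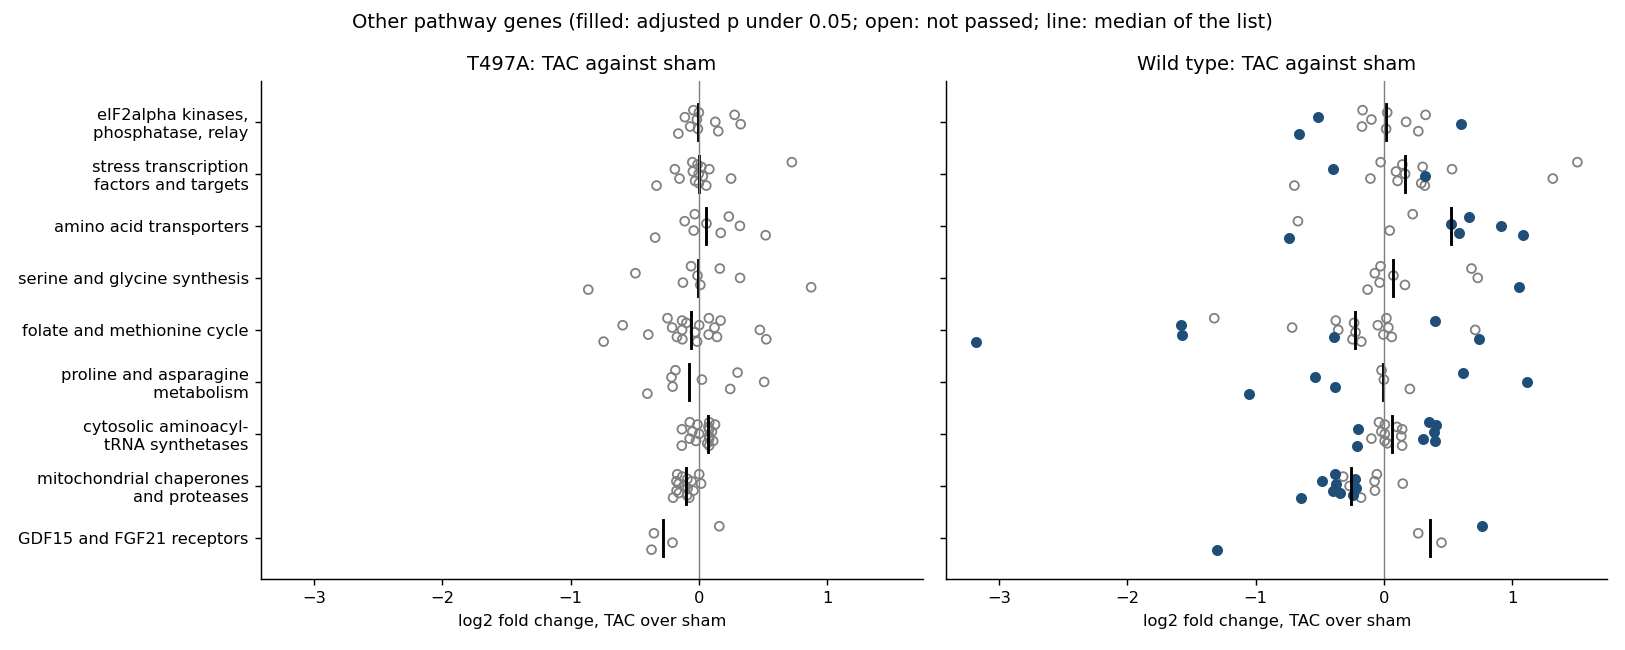
log2 fold change of TAC over sham (horizontal axis) for the 110 other tested genes, in 9 lists down the page, in T497A (left panel) and wild type (right panel). Filled points passed an adjusted p of 0.05, open points did not, and a black line marks each list's median: no point is filled in T497A, and in wild type the transporters lie to the right (median 0.52) and the mitochondrial chaperones and proteases to the left (median -0.25).

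The called amino acid transporters were mostly higher after TAC in wild type. Of 9 tested transporters 5 rose (Slc1a4, Slc7a5, Slc3a2, Slc1a5 and Slc38a2) and 1 fell (Slc7a1), and their median log2 fold change was 0.52. Over all genes 12.3% rose and 12.6% fell. Slc1a4, which carries serine and other neutral amino acids, was at 2.48, 3.84 and 2.76 CPM in T497A TAC, 2.51, 2.05 and 1.76 in T497A sham, 4.01, 4.90 and 3.64 in wild type TAC and 1.43, 2.41 and 2.06 in wild type sham. It rose in wild type (1.09 ± 0.24, adjusted p = 0.00525), and the T497A response was 0.52 ± 0.24 (adjusted p = 0.431). Slc38a2 encodes a carrier of glutamine and other small neutral amino acids. Its level was 202, 204 and 226 CPM in T497A TAC, 237, 216 and 197 in T497A sham, 298, 277 and 391 in wild type TAC and 220.1, 233 and 189 in wild type sham. It was lower in T497A than in wild type after TAC (-0.61 ± 0.12, adjusted p = 0.00973), and its interaction was -0.63 ± 0.17 (adjusted p = 0.0843), called by DESeq2 (0.0185), with no filter (0.00328) and without wild type TAC replicate 2 (0.0441). Slc7a1, a carrier of arginine and lysine, fell in wild type (-0.74 ± 0.18, adjusted p = 0.0103). The calls of Slc3a2 and Slc1a5 were lost without single wild type libraries: TAC replicate 2 or 3 and sham replicate 3 for both, and sham replicate 2 for Slc1a5 (adjusted p 0.0532 to 0.0809).

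Of 16 mitochondrial chaperone and protease genes, 9 fell after TAC in wild type and none rose, where 12.6% and 12.3% of all genes did. The list's median log2 fold change was -0.25. The chaperone gene Hspa9, for mitochondrial HSP70, was at 830.2, 764 and 877 CPM in T497A TAC, 951, 841 and 911 in T497A sham, 711, 693 and 667 in wild type TAC and 924, 925 and 879 in wild type sham. Clpx, the unfoldase subunit of the matrix protease CLPXP, fell in wild type (-0.64 ± 0.16, adjusted p = 0.0135), a call lost without wild type TAC replicate 3 (0.0585). Hspa9 was higher in T497A than in wild type after TAC (0.26 ± 0.07, adjusted p = 0.0354), a call lost with the TAC libraries alone (0.0944) and without any single library except T497A TAC replicate 2 and T497A sham replicates 1 and 2 (0.0517 to 0.158). Over the same comparison of TAC with sham in wild type, mitochondrially encoded transcripts took a smaller share of counts, and lower sums were found for the cardiomyocyte markers (values above); their part in this was not tested.

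Both genes of the relay from mitochondria to eIF2alpha, Oma1 and Dele1, fell after TAC in wild type. Of the 11 genes of their list 1 rose and 2 fell (9.09% and 18.2%, against 12.3% and 12.6% of all genes). Dele1 was at 116, 111 and 122 CPM in T497A TAC, 134, 134 and 123 in T497A sham, 88.1, 98.4 and 87.7 in wild type TAC and 149, 153 and 133 in wild type sham. The wild type TAC libraries stood below all others. Dele1 fell in wild type (-0.66 ± 0.07, adjusted p = 4.67e-05) and was higher in T497A than in wild type after TAC (0.35 ± 0.07, adjusted p = 0.0119), a call lost without T497A TAC replicate 3 or wild type TAC replicate 3 (0.0592 and 0.0646). Its interaction passed at 0.50 ± 0.11 (adjusted p = 0.0345), the only other call of this kind besides Fgfr1 among the 110 genes, and was lost without any single library except T497A TAC replicate 2, T497A sham replicate 1 and wild type TAC replicate 2 (0.0548 to 0.0984). Oma1 was at 32.4, 27.5 and 30.5 CPM in T497A TAC, 27.5, 33.4 and 34.0 in T497A sham, 23.8, 21.9 and 22.0 in wild type TAC and 32.0, 32.4 and 31.9 in wild type sham. It fell in wild type (-0.51 ± 0.09, adjusted p = 0.00117) and was higher in T497A than in wild type after TAC (0.42 ± 0.09, adjusted p = 0.0134), a call lost without T497A TAC replicate 1 or 3 or wild type TAC replicate 3 (0.0518 to 0.065). Ppp1r15a, the stress-induced subunit that directs phosphatase 1 to eIF2alpha, rose in wild type (0.61 ± 0.18, adjusted p = 0.0263), a call lost with the wild type libraries alone (0.0933) and without wild type TAC replicate 1 or 3 or wild type sham replicate 1 or 3 (0.0614 to 0.127), with a log2 fold change of 0.35 without wild type TAC replicate 3.

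**Figure D4:**
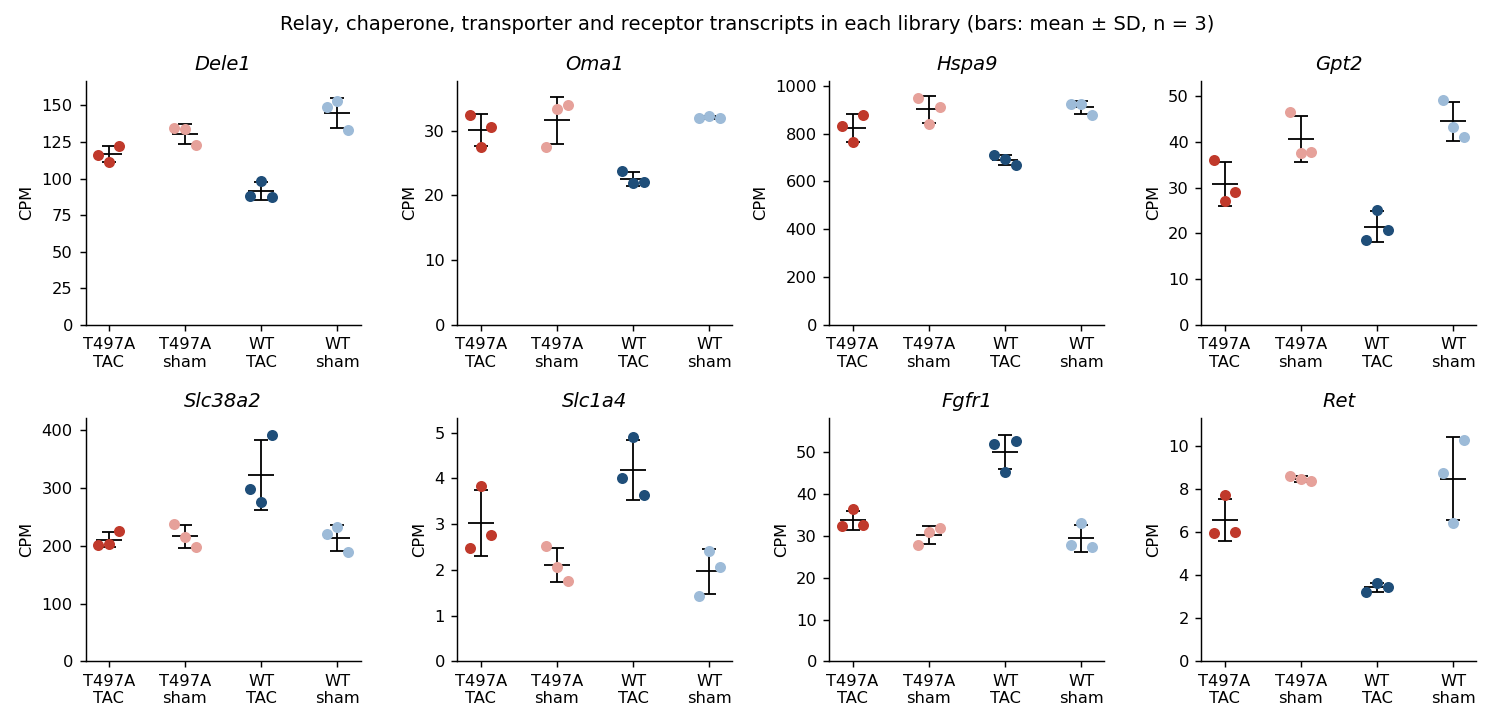
Level in CPM (vertical axes, each from 0) of 8 genes of the relay, chaperone, amino acid and receptor lists in the 4 groups, with 1 point for each library and lines for the mean ± SD (n = 3). In wild type TAC Dele1, Oma1, Hspa9, Gpt2 and Ret stand lowest and Slc38a2, Slc1a4 and Fgfr1 highest of the 4 group means.

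Enzyme genes of amino acid and folate metabolism were mixed after TAC in wild type, where 12.3% of all genes rose and 12.6% fell. In serine and glycine synthesis 1 of 9 rose, the mitochondrial serine carrier gene Sfxn3 (1.06 ± 0.22, adjusted p = 0.00412). It was at 9.21 ± 2.60 CPM in T497A TAC, 7.38 ± 2.24 in T497A sham, 14.7 ± 1.39 in wild type TAC and 7.06 ± 0.577 in wild type sham. Of 20 folate and methionine cycle genes 2 rose and 4 fell. Tyms, for thymidylate synthase, rose (0.74 ± 0.24, adjusted p = 0.0347), a call lost with no filter on low counts (0.0813) and without any of the 6 wild type libraries (0.0517 to 0.108). Cbs, for cystathionine beta-synthase, was called lower at counts of 0, 2 and 4 in wild type TAC and 26, 26 and 4 in wild type sham, so near the floor of 3 counts that no fold is given; without wild type TAC replicate 1 or 2 or wild type sham replicate 1 or 2 it was not called (0.0535 to 0.0668). In proline and asparagine metabolism 2 of 8 rose and 3 fell. Gpt2, the mitochondrial alanine aminotransferase, averaged 30.8 ± 4.76 CPM in T497A TAC, 40.7 ± 5.08 in T497A sham, 21.4 ± 3.36 in wild type TAC and 44.5 ± 4.22 in wild type sham. It fell in wild type (-1.05 ± 0.14, adjusted p = 0.000136) and was higher in T497A than in wild type after TAC (0.52 ± 0.14, adjusted p = 0.0318), a call lost with the TAC libraries alone (0.0721) and without replicate 1 or 3 of either TAC group (0.0699 to 0.126). Pycr1, for proline synthesis, rose in wild type (1.12 ± 0.35, adjusted p = 0.031), a call lost without wild type TAC replicate 1 or 3 or wild type sham replicate 1 or 3 (0.0591 to 0.121).

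Of 18 cytosolic aminoacyl-tRNA synthetase genes 5 rose after TAC in wild type (Aars, Cars, Nars, Sars and Yars) and 2 fell (Dars and Kars). These are 27.8% and 11.1%, against 12.3% and 12.6% of all genes. Aars averaged 64.0 ± 3.03 CPM in T497A TAC, 60.6 ± 2.20 in T497A sham, 79.6 ± 8.33 in wild type TAC and 60.02 ± 0.675 in wild type sham. It rose in wild type (0.41 ± 0.08, adjusted p = 0.00172), and Yars was lower in T497A than in wild type after TAC (-0.32 ± 0.09, adjusted p = 0.0395), a call lost with the TAC libraries alone (0.0863) and without any single library except T497A TAC replicate 1, T497A sham replicates 1 and 2 and wild type sham replicate 2 (0.0504 to 0.158). Kars fell in wild type (-0.21 ± 0.06, adjusted p = 0.0213), a call lost with no filter (0.0908) and without any wild type library except TAC replicate 2 (0.052 to 0.0937). Among 15 stress transcription factors and targets 1 rose and 1 fell in wild type, 6.67% each and so below the shares of all genes. The C/EBP partner gene Cebpg rose (0.32 ± 0.09, adjusted p = 0.0194), and the lipoprotein receptor gene Vldlr fell (-0.40 ± 0.09, adjusted p = 0.00718). The Cebpg call was lost without wild type TAC replicate 2 or 3 or wild type sham replicate 2 or 3 (0.0578 to 0.0858). Vldlr was higher in T497A than in wild type after TAC (0.41 ± 0.09, adjusted p = 0.0179), a call lost with the TAC libraries alone (0.0556) and without T497A TAC replicate 1 or wild type TAC replicate 1 or 3 (0.0522 to 0.0654).

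Where a list had no call, its gene with the smallest p was taken by value. After TAC in T497A these were Eif2ak3 (log2 fold change 0.33), Ddit4 (0.72), Slc1a4 (0.52), Amt (-0.50), Tyms (0.48), Gpt2 (-0.40), Kars (-0.13), Phb (-0.17) and Ret (-0.37), with adjusted p from 0.268 to 0.822; with no filter on low counts Gpt2 was called (0.0138). After sham, T497A against wild type, they were Dele1 (-0.15), Ddit3 (0.18), Slc6a9 (-0.46), Amt (0.51), Pck2 (-0.25), Nars (0.09), Phb (-0.24) and Fgfr2 (0.40), each with an adjusted p of 1. After TAC, T497A against wild type, they were Sfxn3 (-0.68, adjusted p = 0.0776) and Cth (1.00, adjusted p = 0.199). Sfxn3 was called there by DESeq2 (0.0238), by limma-voom (0.0402), with no filter (0.00422) and without T497A TAC replicate 2 (0.0173) or T497A sham replicate 1 (0.0269). For the interaction they were Slc38a2, given above, Sfxn3 (-0.74), Gpt2 (0.65), Vldlr (0.37), Nars (-0.27) and Dnaja3 (0.28), with adjusted p from 0.0843 to 0.255. Of these, DESeq2 called Gpt2 (0.0314), no filter called Gpt2 (0.001) and Vldlr (0.0218), and Gpt2 was called without wild type TAC replicate 2 (0.0488).

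The genes whose pattern over the 12 libraries was nearest to each pattern-chosen member were found among tested genes with a mean of at least 5 CPM, 9400 for Nupr1 and Mthfd2 and 9399 for Aldh1l2. The measure was the root mean square difference of log2 CPM after each gene's own mean was taken off. Nearest to Nupr1 were Mgp, an inhibitor of calcification in matrix, Pamr1 and the matrix proteoglycan gene Bgn, at 0.21, 0.21 and 0.25, where Nupr1's own deviations have a root mean square of 0.96. Mgp averaged 126 CPM in T497A TAC, 75.5 in T497A sham, 290.4 in wild type TAC and 70.3 in wild type sham. Nearest to Mthfd2, whose own value is 0.64, were Ctss, a lysosomal protease of macrophages, Slfn2 and Hectd2os, at 0.25, 0.29 and 0.29. Ctss averaged 23.4 CPM in T497A TAC, 12.8 in T497A sham, 20.5 in wild type TAC and 9.85 in wild type sham. The name Hectd2os marks an antisense transcript, and without stated strand use its reads cannot be told from those of its partner. Nearest to Aldh1l2, whose own value is 0.86, were the muscle kinase gene Mylk4, Sorcs2 and the phospholipase gene Pla2g5, at 0.27, 0.30 and 0.30. Mylk4 averaged 315 CPM in T497A TAC, 478 in T497A sham, 139 in wild type TAC and 496 in wild type sham. These likenesses are a description, and the libraries share their groups, so most of each rests on 4 group levels.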

How the data were processed

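Left ventricle RNA of 12 libraries was sequenced single-end for 75 cycles after mRNA library preparation, per the labels' protocols. The deposited table holds raw counts of reads for 55401 genes. The submitters' processing notes name limma 3.50.3, Subread 1.6.3, featureCounts, STAR 2.7.3a, Trim Galore 0.6.4 and mm10. The sources used here do not give their settings, the annotation or whether strand was used. Sample titles share 1 replicate number. Replicates were numbered by accession and pair nothing. Counts of replicates differed beyond sampling noise for every pair (chi-square per degree of freedom 23.1 to 63.3).

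With edgeR 4.0.16 (R 4.3.3), filterByExpr kept 15764 genes at its minimum count of 10, which were tested as follows: TMM, glmQLFit with robust estimation and glmQLFTest in 1 model over the 4 groups, Benjamini-Hochberg adjustment over all tested genes, threshold 0.05. The biological coefficient of variation was 17.2%. The SE is the log2 fold change, without its sign, over the square root of F. CPM were computed from the deposited counts with TMM factors. Alternatives used DESeq2 1.42.0, limma-voom (limma 3.58.1), DESeq2 size factors, no filter, mitochondrially encoded genes left out, only the libraries compared, halved counts and each library left out. The procedure was tested on simulated data. Members and gene lists were chosen with earlier results of these data known. Of the lists, the called gene with the largest change in each direction was named per list and comparison, or else the gene with the smallest p; Slc7a5, Slc3a2, Slc1a5, Cars, Nars, Sars, Dars, the wild type response of Oma1, and the genotype difference of Dele1 after TAC were named besides, after their values were seen. Values of 1 gene that this rule names are not reported here. Exon lengths and positions are from GENCODE M21 on GRCm38, promoters from RefSeq on GRCm38.p6.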

Additional observations from a re-analysis of the deposited data

Results flagged for a closer look

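The TAC response of Nupr1 and that of Aldh1l2 differed between the genotypes by the interaction; Aldh1l2 was chosen for it. The interaction of Nupr1 was -1.52 on the log2 scale, with group means of 4.50 CPM in T497A TAC, 2.34 in T497A sham, 11.0 in wild type TAC and 1.98 in wild type sham. The interaction of Aldh1l2 was 1.68, with group means of 7.38 CPM in T497A TAC, 10.5 in T497A sham, 2.95 in wild type TAC and 13.5 in wild type sham. Both are descriptions, since the contrasts behind them chose the genes.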

How the results depend on the processing

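No paired analysis was possible because the labels give no replicate number that differs between libraries. The wild type TAC count of 3 genes taken for their function ran from 2 to 3 when single libraries were left out, and the count after TAC in T497A stayed 0 except for 1 with no filter on low counts. Between genotypes after TAC the count was 2 in place of 1 with DESeq2, limma-voom, no filter and only the libraries compared, and ran from 1 to 2 over left-out libraries, 2 being without T497A sham replicate 1. The interaction count was 1 in place of 0 with DESeq2 and with no filter, and ran from 0 to 1, 1 being without wild type TAC replicate 2. The after-sham counts stayed 0 in all settings, which shows no stability in itself.

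Among the 110 pathway genes, the wild type count of 41 ran from 27 (without wild type TAC replicate 3) to 43. Of these 41 calls, 10 of 18 rises and 14 of 23 falls held in every setting. After TAC in T497A 2 were called with no filter. Between genotypes after TAC the count of 10 became 19 with DESeq2, 17 with no filter and 5 with only the libraries compared, and ran from 3 (without wild type TAC replicate 3) to 12, with 5 without T497A TAC replicate 3 and 6 without T497A TAC replicate 1; Ret, Slc38a2 and Fgfr1 held throughout. The interaction count of 2 became 6 with DESeq2, 1 with limma-voom and 6 with no filter, and ran from 0 to 4. Over all genes, calls after TAC in T497A were 18 in the main setting, 297 with DESeq2, 331 with no filter and 0 with limma-voom.

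Signs turned only for log2 values that were called in no setting. With limma-voom the T497A responses of Atf4 and Psat1 were 0.0058 and -0.0208, and over left-out libraries they ran from -0.1352 to 0.2207 and from -0.1312 to 0.2752. The Psat1 difference between genotypes after TAC ran from -0.4018 to 0.0053. After sham, the difference of Atf5, 1e-04, became -0.0019 with DESeq2 and with its size factors, -0.0059 with limma-voom, -0.0031 without mitochondrially encoded genes, -0.0032 with no filter and -3e-04 with halved counts. Over left-out libraries the after-sham differences ran from -0.0556 to 0.076 for Atf5, -0.1649 to 0.1911 for Atf4, -0.3232 to 0.368 for Gdf15, -0.2607 to 0.2329 for Asns and -0.1144 to 0.0416 for Shmt2. The T497A response of the pathway gene Ddit4 ran from -0.1849 to 1.1839. The cause was not tested, except that leaving out a library leaves fewer samples. Low counts limit Fgf21, with 14 counts in all 12 libraries.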
